A study of Mus musculus with 4 samples.

Results

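The genes described here are 7 genes of the muscle precursors that migrate into the limb: Pax3, Pax7, Lbx1, Met, Myf5, Myod1 and Myog. They were chosen by name, as 7 of 21536 protein-coding genes whose start site could be placed on the mouse genome build mm10, and each was described by the ATAC-seq peaks within 100 kb on either side of its start site. ATAC-seq uses the Tn5 transposase to tag DNA that is accessible in chromatin. The study profiled fore- and hindlimbs of wild-type mouse embryos at E10.5 or E11.5 (E for embryonic day), with 2 samples of each age. The sample titles give E10.5 for the earlier stage, while the protocol gives E10. The deposited data are a pair of peak lists, each joining the 2 replicates of an age. On chromosomes 1 to 19, X and Y the E10.5 list has 99356 peaks and the E11.5 list 37413. The 7 windows held 121 peaks of the E10.5 list and 20 of the E11.5 list. Joined lists give no spread between replicates and no test between stages, and their depth is unknown, so every difference below is one between these 2 lists.

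Limb muscle does not arise in the limb bud itself. Its precursors leave the dermomyotome of the somites next to the limb, migrate into the bud under the receptor tyrosine kinase Met and its ligand Hgf, and carry the transcription factors Pax3 and Lbx1 on the way. Once in the limb they switch on the myogenic basic helix-loop-helix factors, with Myf5 and Myod1 committing cells to the muscle fate and Myog driving their differentiation, while Pax7 marks muscle progenitors and later the satellite cells of adult muscle. Whole limbs were profiled, so these precursors are a minority among mesenchyme, ectoderm and other cells, and fewer cells of a type and less accessible DNA per cell cannot be told apart.

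All 7 genes had a promoter peak, a peak within 1 kb of the start site, in the E10.5 list, where 66.3% of all protein-coding genes had one. In the E11.5 list 3 of the 7 had one, namely Lbx1, Met and Myod1, against 59.9% of all protein-coding genes. Of all genes with an E10.5 promoter peak, 89.9% also had one in the E11.5 list. Pax3, Pax7, Myf5 and Myog thus belonged to the 6.71% of protein-coding genes with a promoter peak in the E10.5 list only. The peaks carry the authors' signal value, which behaves as a total over the peak and grows with its width, and the smallest value on these chromosomes was just above 200 in each list. The 9 E10.5 promoter peaks of the 7 genes had signals from 320 to 5340 with a median of 1087, while the median over all promoter peaks of that list was 4313. The 3 E11.5 promoter peaks had signals of 391, 489 and 2384, against a median of 2781 over all promoter peaks of the E11.5 list. Only the Lbx1 peak of the E10.5 list lay above the median of all promoter peaks of its list. With peaks of −log10 p (from the authors' p-value of each peak) of at least 5 alone, 5 of the 7 genes had an E10.5 promoter peak, without Pax3 and Pax7, against 62.1% of all protein-coding genes. At E11.5 these were Met and Myod1 alone, without Lbx1, against 54% of all.

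**Figure D1:**
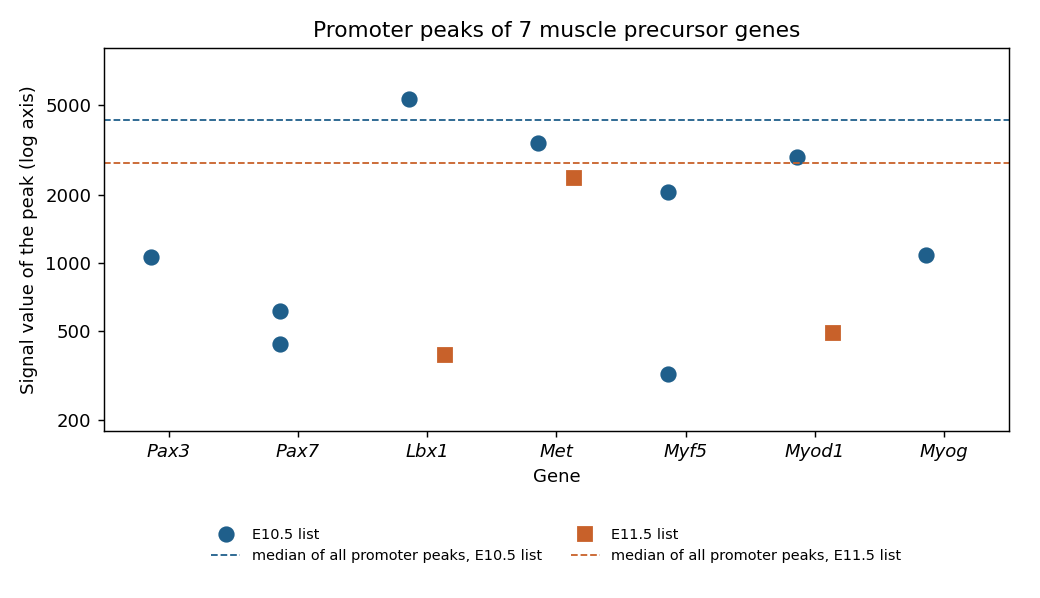
Signal value of each promoter peak (log axis) for the 7 genes, with circles for the E10.5 list and squares for the E11.5 list. Dashed lines give the median of all promoter peaks of each list. Pax3, Pax7, Myf5 and Myog have circles only, and the Lbx1 circle at 5340 is the only symbol above the dashed line of its own list.

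The 2 lists differ in length, so they were also compared at matched number. When the E10.5 list was reduced to its 37413 peaks of highest signal, 4 of the 7 genes kept a promoter peak, namely Lbx1, Met, Myf5 and Myod1, and 59.6% of all genes did. When it was reduced by −log10 p, 3 genes kept one, and these were Lbx1, Met and Myod1, the 3 with an E11.5 promoter peak. In that comparison 57.7% of all genes had an E10.5 promoter peak. At matched number the lists therefore differed at Myf5 by one ranking and at none of the 7 promoters by the other.

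RefSeq promoter sequences, which run from 250 bases before to 50 bases after a start site on GRCm38.p6, the assembly with the mm10 coordinates, were at hand for 4 of the 7 genes. The start site of the sequence is that of the gene's outer end for Myog. It lies 608 bp inside the gene for Met, 562 bp for Pax7 and 793 bp for Myf5, so these windows are not centred on the start sites used for the peaks. They are shown because the 4 differ in base composition and in the motifs they hold. Met is the only one of them found in both lists, and the other 3 were found in the E10.5 list only. A single promoter against 3 cannot tie composition or motifs to the lists. Lbx1 and Myod1, also found in both lists, had no sequence. Each is written 5′ to 3′ in the direction of transcription. Capitals mark letters that match 1 of 4 motifs on either strand: the E-box CANNTG, bound by basic helix-loop-helix factors; TCAGGTTTC, the MEF3 element of muscle promoters; CTANNNNTA, a frame shared by many MEF2 elements; and TATAAA.
Met, chr6:17463707-17464006, plus strand: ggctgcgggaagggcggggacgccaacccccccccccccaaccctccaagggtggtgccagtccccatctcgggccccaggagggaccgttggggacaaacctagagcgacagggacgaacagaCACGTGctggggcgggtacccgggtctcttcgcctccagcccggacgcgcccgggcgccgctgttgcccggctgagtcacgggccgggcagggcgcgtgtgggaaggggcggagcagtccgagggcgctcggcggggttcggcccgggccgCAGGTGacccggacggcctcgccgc
Pax7, chr4:139832919-139833218, minus strand: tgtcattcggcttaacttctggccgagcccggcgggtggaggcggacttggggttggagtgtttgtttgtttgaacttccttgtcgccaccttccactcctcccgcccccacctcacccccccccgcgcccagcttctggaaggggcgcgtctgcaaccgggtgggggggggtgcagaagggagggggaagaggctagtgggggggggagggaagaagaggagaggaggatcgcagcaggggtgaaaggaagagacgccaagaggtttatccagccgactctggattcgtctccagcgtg
Myf5, chr10:107486085-107486384, minus strand: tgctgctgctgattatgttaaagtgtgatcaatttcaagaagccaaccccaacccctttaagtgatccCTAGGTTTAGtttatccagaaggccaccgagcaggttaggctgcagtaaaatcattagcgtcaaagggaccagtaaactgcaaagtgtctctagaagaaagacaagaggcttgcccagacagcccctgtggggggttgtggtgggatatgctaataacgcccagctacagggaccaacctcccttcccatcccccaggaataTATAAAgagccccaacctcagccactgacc
Myog, chr1:134289754-134290053, plus strand: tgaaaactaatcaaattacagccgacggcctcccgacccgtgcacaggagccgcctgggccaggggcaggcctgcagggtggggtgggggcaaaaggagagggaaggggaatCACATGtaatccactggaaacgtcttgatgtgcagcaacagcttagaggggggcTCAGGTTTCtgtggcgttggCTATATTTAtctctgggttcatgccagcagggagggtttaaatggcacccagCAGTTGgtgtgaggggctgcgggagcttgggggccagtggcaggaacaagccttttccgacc

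The Met promoter held 34 CpG dinucleotides in 300 bases, Pax7 held 17, Myog 9 and Myf5 3, and the median over 21263 promoters of protein-coding genes was 13. Peaks of the E10.5 list covered, in all, 300 bases of the Met window, 300 of the Myog window, 245 of the Myf5 window and 165 of the Pax7 window. Those of the E11.5 list covered 300 bases of the Met window and 0 of the other 3. All promoters were split by CpG count into 4 classes of like size. Among those with 25 to 67 CpGs, the class in which Met lies, 96.9% were covered by an E11.5 peak. Of the E10.5-covered promoters, 97.6% were also covered at E11.5 in the class of Met, 95.7% in that of Pax7 (13 to 24 CpGs), 74.3% in that of Myog (4 to 12) and 41.6% in that of Myf5 (0 to 3). The Pax7 promoter was thus without E11.5 cover in a CpG class where such cover was the rule, and the Myf5 promoter in a class where it was not. By signal the order was another. In the deciles of the E10.5 list by signal that hold the 2 Pax7 peaks, 25.5% and 17.3% of all promoter peaks overlapped an E11.5 peak. For the peak over the Myog window this share was 52.7%, and for that over the Myf5 window 88.8%.

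**Figure D2:**
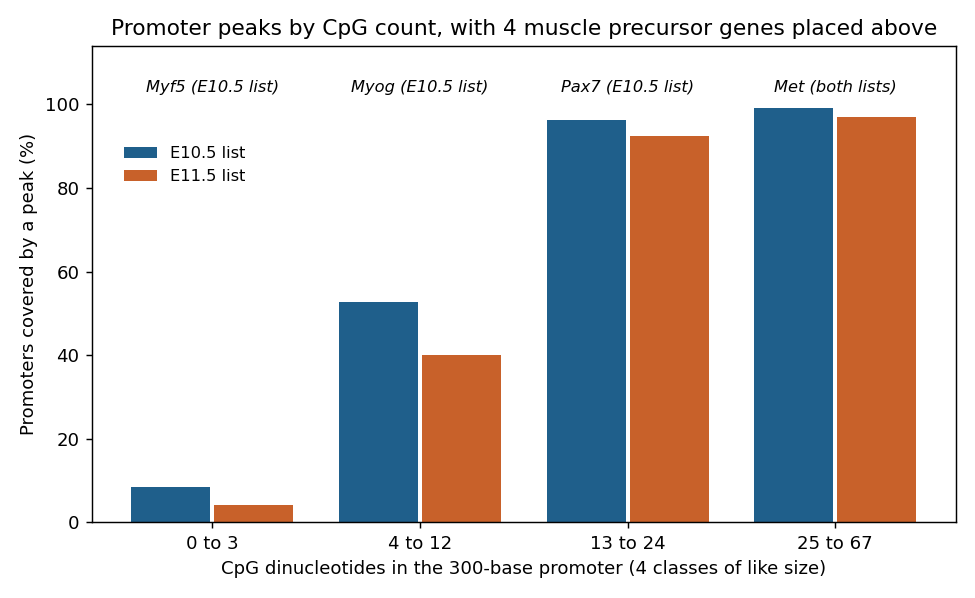
Percentage of RefSeq promoters covered by a peak of the E10.5 list (blue) or the E11.5 list (orange), by CpG count in the 300-base window. The 4 muscle precursor genes with a sequence are written above their class with the lists that cover them. Cover at E11.5 runs from 4.09% in the lowest class to 96.9% in the highest, and Met, in the highest, is the gene covered in both lists.

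The Myog promoter is a textbook muscle promoter, known for E-box, MEF2 and MEF3 elements close to the start site. The window held 2 E-boxes, CACATG starting 138 bases and CAGTTG starting 12 bases before the start site. It held 1 TCAGGTTTC, starting 84 bases before it, and 1 CTANNNNTA match, CTATATTTA, starting 64 bases before it. At least 1 E-box was found in 69.0% of all promoters, CTANNNNTA in 19.1% and TATAAA in 12.6%, while TCAGGTTTC was found in 0.447%, which is 95 promoters. Met held 2 E-boxes, CACGTG at bases 125 to 130 of the window and CAGGTG at bases 276 to 281, which is after the start site of the sequence. Myf5 held CTANNNNTA on both strands in 2 overlapping matches before the start site of its sequence. Its 1 TATAAA lies at bases 271 to 276, after that start site. None of the 4 motifs was found in the Pax7 window. These matches describe letters in the window and not bound sites.

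Around the 7 promoters, the E10.5 list held 112 distal peaks and the E11.5 list 17. Of the distal peaks, 8 in the E10.5 list and 6 in the E11.5 list lay within 1 kb of the start site of another protein-coding gene, which left 104 and 11 away from any such promoter. Of the 121 E10.5 peaks, 20 overlapped an E11.5 peak by at least 1 bp, which is 16.5% (95% Wilson interval 11 to 24.2%, counting error only), against 32.3% of all E10.5 peaks. Away from promoters the share was 11 of 104, or 10.6% (6.01 to 18.0%), against 23.5% of all distal E10.5 peaks. Of the 9 promoter peaks of that list 3 did, or 33.3% (12.1 to 64.6%), against 86% of all its promoter peaks. The 86% takes no account of signal, and the 6 without overlap had signals from 320 to 2065. In the deciles of the list by signal that hold these 6, the share of all promoter peaks that overlapped ran from 88.8% to 17.3%. In those that hold the 3 with overlap it was 99.7% and 98.2%. In the other direction all 20 E11.5 peaks overlapped an E10.5 peak, which is 100% with a lower bound of 83.9%, against 91.8% of all E11.5 peaks. They comprised 3 promoter and 17 distal peaks, and over the whole list 98.8% of promoter and 88.2% of distal peaks overlapped.

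These shares also move with the length of the lists and the overlap asked for. With the E10.5 list shortened by signal to the length of the other, 18 of its 36 peaks near the 7 genes (50%) and 18 of the 20 E11.5 peaks (90%) overlapped, against 68.9% and 75.3% over the whole lists. Reduced by −log10 p, the shares were 18 of 31 (58.1%) and 18 of 20 (90%), against 70.2% and 76.4%. The share of the E10.5 peaks stayed below that of its list and the share of the E11.5 peaks above it in both cases. These matched shares were not split into promoter and distal peaks, of which 86% and 23.5% overlapped in the full E10.5 list. With a reciprocal overlap of 50% the shares were 7 of 121 (5.79%) and 7 of 20 (35%), against 20.3% and 53.8%, so the E11.5 share then lay below that of its list.

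**Figure D3:**
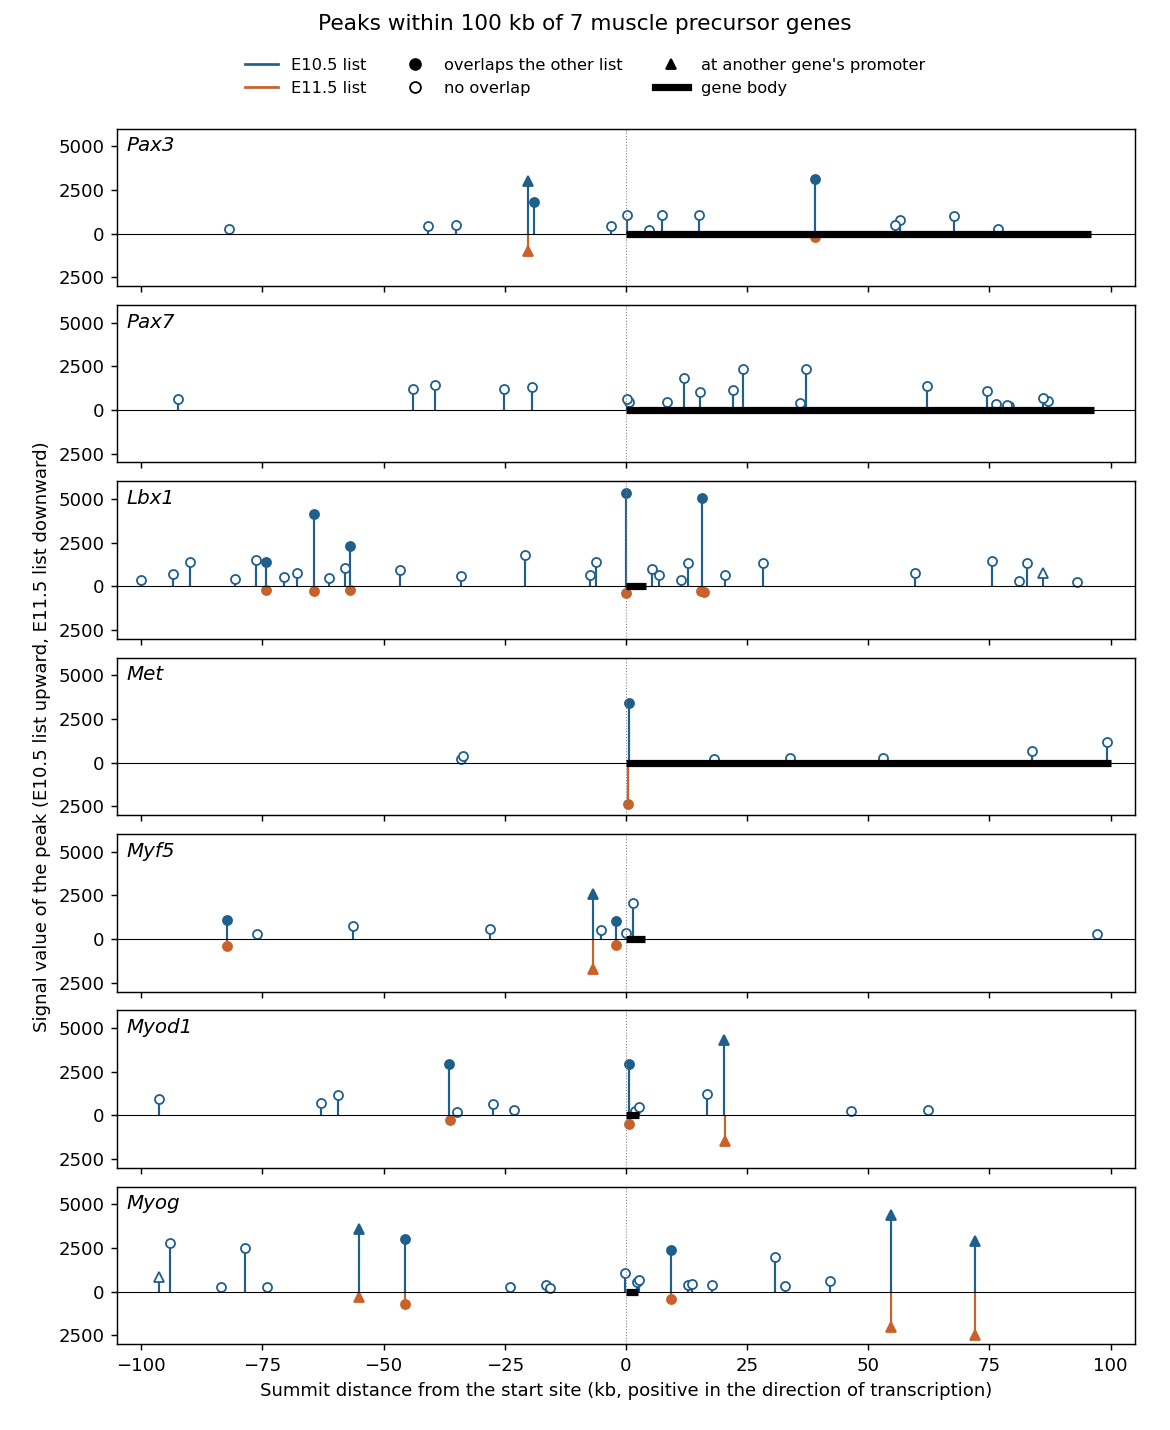
Every peak within 100 kb of the 7 start sites, placed by its summit (kb from the start site, positive in the direction of transcription; the Met gene runs beyond the window), with the signal value upward for the E10.5 list and downward for the E11.5 list. Filled symbols overlap the other list, open ones do not, and triangles lie at another gene's promoter; the 21 Pax7 peaks are all open and all from the E10.5 list.

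The 112 distal E10.5 peaks lay on both sides of the start sites, 54 upstream and 58 downstream. Inside the member's own gene lay 30 of them, 14 in Pax7, 8 in Pax3, 5 in Met, 2 in Myod1 and 1 in Myog, and 1 of the 30, in Pax3, overlapped an E11.5 peak. Of all distal E10.5 peaks that lie in a protein-coding gene, 22.4% did. By distance, 39 lay within 25 kb of the start site, 23 between 25 and 50 kb, 22 between 50 and 75 kb and 28 beyond.

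Overlap followed the signal of the E10.5 peak. The 20 overlapping E10.5 peaks had signals from 1028 to 5340 with a median of 2981, and the 101 others had signals from 202 to 2776 with a median of 613. In the 3 highest deciles of the E10.5 list by signal, 17 of 25 peaks near the 7 genes (68.0%) overlapped an E11.5 peak, against 77.3% of all E10.5 peaks in those deciles. Below them, 3 of 96 (3.12%) did, against 13.0% of all. The 25 peaks were uneven over the 3 highest deciles, with 2, 12 and 11 from the highest down. Of these, 2 (100%), 11 (91.7%) and 4 (36.4%) overlapped, against 96.7%, 81.3% and 54.0% of all E10.5 peaks there. The pooled 68.0% and 77.3% thus rest on different mixes of deciles. Among peaks away from any promoter the shares were 8 of 15 (53.3%) against 65.2% in the 3 highest deciles, and 3 of 89 (3.37%) against 11.8% below them. Those 15 were not split by single decile, and the share of all such peaks fell from 92.1% in decile 1 to 47.6% in decile 3. Where both lists held a peak, the summits lay close together. For the 20 E11.5 peaks the nearest overlapping E10.5 summit was 0 to 432 bp away with a median of 12.5 bp, and for 18 of 20 (90%) it was within 100 bp, against a median of 27 bp and 76.9% over all overlapping E11.5 peaks. In 19 of the 20 the E11.5 peak was narrower than the E10.5 peak it overlapped, as in 88.9% of all.

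**Figure D4:**
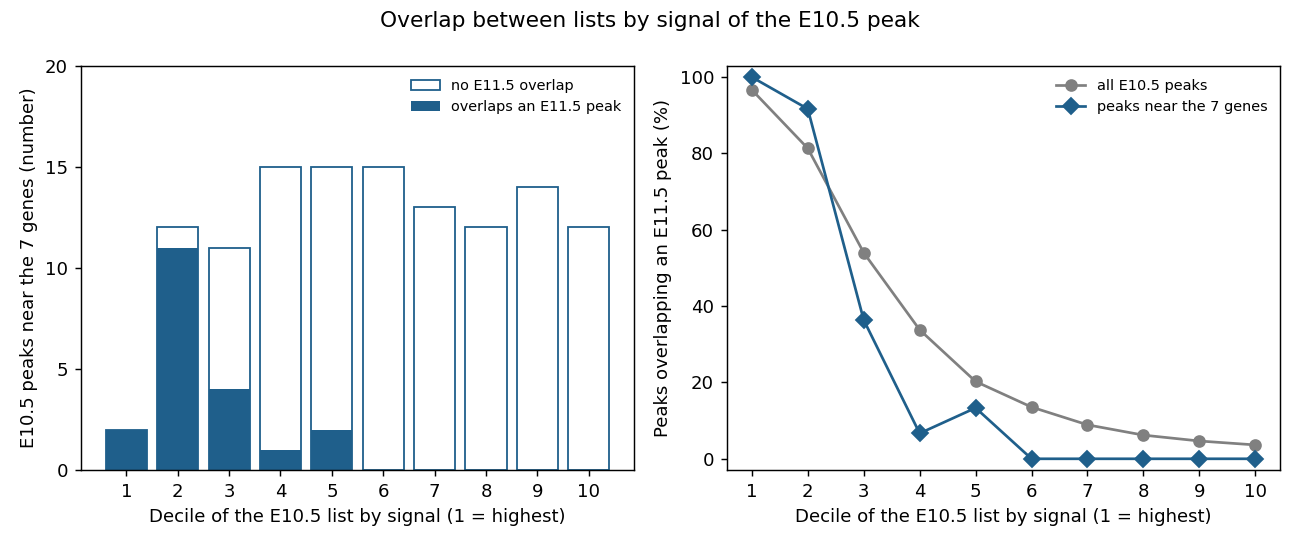
Left, number of E10.5 peaks near the 7 genes in each decile of the E10.5 list by signal (1 is the highest), with the part that overlaps an E11.5 peak filled. Right, percentage that overlaps, for the 7 genes (diamonds) and for all E10.5 peaks (circles); the 7 genes have 11 of 12 in decile 2 and 0 in each decile from 6 to 10, and each of their points rests on 15 peaks or fewer.

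Pax3 encodes a paired-box factor that marks the dermomyotome and the migrating precursors, and it is also expressed in neural crest. The gene lies on the minus strand of chromosome 1 at 78101267 to 78197136. Its window held 15 E10.5 peaks and 2 E11.5 peaks. The promoter peak at 78196357 to 78197465 spans the start site and had a signal of 1062, rank 42621 of 99356, with no E11.5 overlap. The strongest peak lay inside the gene, 38.5 kb downstream of the start site at 78157592 to 78158656, with a signal of 3152 (rank 17490). The E11.5 list had a peak there of signal 202 (rank 37245 of 37413), near the lowest value of the list, whose summit was 2 bp from the E10.5 summit. A pair of E10.5 peaks upstream, at 78215740 to 78216666 and 78216799 to 78218625, had signals of 1822 and 3025, and a single E11.5 peak of signal 1019 (rank 15610) overlapped both. The second of them lies at the start site of the predicted gene Gm2102.

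Pax7, the paralogue of Pax3, lies on the minus strand of chromosome 4 at 139737059 to 139833530. Its window held 21 E10.5 peaks and 0 E11.5 peaks. It held no start site of another protein-coding gene. The nearest E11.5 peak was 210 kb from the Pax7 start site. Of all protein-coding genes, 11.8% had no E11.5 peak within 100 kb, while 16.4% had at least as many E10.5 peaks as Pax7. Its 2 promoter peaks had signals of 611 (139833121 to 139833668, rank 59804) and 437 (139832672 to 139832985, rank 71171). Of its 19 distal peaks 14 lay within the gene. The 3 strongest were among these, at 139795863 to 139796638 (signal 2357, rank 23028), 139809102 to 139810035 (signal 2325, rank 23315) and 139821187 to 139822160 (signal 1820, rank 28695), which start 36.9, 23.5 and 11.4 kb downstream of the start site. Of all E10.5 peaks away from promoters in the decile that holds these 3, 47.6% overlapped an E11.5 peak.

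Lbx1, a homeobox factor needed for the lateral migration of limb muscle precursors, lies on the minus strand of chromosome 19 at 45232684 to 45236841. Its window was the densest of the 7 in both lists, with 31 E10.5 and 6 E11.5 peaks, and 3.25% of protein-coding genes had at least 31 E10.5 peaks. The E10.5 promoter peak at 45234094 to 45237004 covers most of the gene, with a signal of 5340 (rank 8710). The E11.5 promoter peak at 45236429 to 45236957 covers the start site alone, with a signal of 391 (rank 26194 of 37413), and the summits were 8 bp apart. A second peak of like strength lay 15 kb downstream of the start site, beyond the gene's end, at 45220465 to 45221822, with a signal of 5037 (rank 9607). The E11.5 list had 2 small peaks inside it, of signals 301 and 244. Upstream, the E10.5 peaks at 45300839 to 45303166 (64.0 kb, signal 4142) and 45293474 to 45294203 (56.6 kb, signal 2302) overlapped E11.5 peaks of signals 280 and 226. All 5 distal E11.5 peaks of Lbx1 had signals between 209 and 301, with ranks from 30130 to 36659 of 37413. The homeobox gene Tlx1 starts 86.7 kb away, and its promoter peak of signal 752 was in the E10.5 list only.

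Met, the receptor through which Hgf releases the precursors from the dermomyotome, runs from 17463349 to 17573980 on chromosome 6 (plus strand). It had the sparsest E10.5 window of the 7, with 8 peaks, and 62.5% of protein-coding genes had at least as many. Its promoter peak was the strongest of the 7 promoters at E11.5. Its E10.5 signal was 3414 (17463302 to 17464681, rank 16078) and its E11.5 signal 2384 (17463381 to 17464549, rank 8946), and it was the single E11.5 peak of the window. The 7 distal E10.5 peaks ranged in signal from 202 to 1199. The strongest of them were at 17562498 to 17563000 (signal 1199) and 17546745 to 17547141 (signal 694), both inside the gene, and at 17429662 to 17429994 upstream (signal 359). None of the 7 overlapped an E11.5 peak. Met is not specific to muscle precursors, since many epithelia express it.

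Among the myogenic factors, Myf5 lies on the minus strand of chromosome 10 at 107482908 to 107486927, next to its paralogue Myf6. Its window held 10 E10.5 and 3 E11.5 peaks. The E10.5 list had 2 promoter peaks. One of signal 2065 lay inside the gene (107484751 to 107486329, rank 25790) and spans 107486134, the start site of the RefSeq promoter sequence. The other, of signal 320, lay at the outermost start site (107486733 to 107487113, rank 82053). Neither overlapped an E11.5 peak. The nearest E11.5 peak, at 107488639 to 107489003, was 1.71 kb upstream of the start site, with a signal of 324 against 1028 for the E10.5 peak it overlapped. The strongest peak of the window in both lists was that within 1 kb of the Myf6 start site. It had a signal of 2566 at E10.5 (107493316 to 107494542) and of 1717 at E11.5 (107493236 to 107494346, rank 11540). Myf6 encodes the fourth myogenic factor. The remaining pair lay 82.1 kb upstream at E10.5 (107569008 to 107569749, signal 1093) and at 107568966 to 107569387 at E11.5 (signal 421), with summits 14 bp apart.

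Myod1 runs from 46376474 to 46379092 on chromosome 7 (plus strand), and 14 E10.5 and 3 E11.5 peaks lay in its window. The promoter peak had a signal of 2953 at E10.5 (46376131 to 46377917, rank 18601). At E11.5 it had a signal of 489 (46376842 to 46377298, rank 23081), did not reach the start site and had its summit 16 bp from the E10.5 one. The strongest peak of the window in both lists lay at the start site of the potassium channel gene Kcnc1, 19.7 kb downstream at E10.5, with signals of 4330 and 1474. The strongest peak away from promoters lay 35.9 kb upstream at 46339615 to 46340590, with a signal of 2913 (rank 18855). It overlapped an E11.5 peak of signal 244 at 46339867 to 46340269. The next distal E10.5 peak, at 46393035 to 46393620 with a signal of 1238, had no E11.5 overlap. Myod1 is known to be controlled by an upstream core enhancer and by a distal regulatory region nearer to the gene. These elements were not placed in the window, so no peak named here is assigned to either.

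Myog runs from 134290004 to 134292548 on chromosome 1 (plus strand), in the most gene-rich of the 7 windows, with 5 other protein-coding start sites. In the window were 22 E10.5 peaks and 5 E11.5 peaks. The promoter peak at 134289477 to 134290595 had a signal of 1087 (rank 41976) and no E11.5 overlap, and the nearest E11.5 peak was 8.88 kb from the start site. At both stages the 2 strongest peaks lay at promoters of other genes, at E10.5 those of Ppfia4 and Adora1 and at E11.5 those of Tmem183a and Ppfia4. At Ppfia4 the E10.5 signal was 4372 and the E11.5 signal 1992, at the adenosine receptor gene Adora1 3559 and 304, the lowest of the 5 E11.5 peaks, and at Tmem183a 2904 and 2454. The 2 E11.5 peaks away from promoters had signals of 679 at 134244270 to 134244549, 45.5 kb upstream, and 397 at 134298885 to 134299443, 8.88 kb downstream, and overlapped E10.5 peaks of signals 3010 and 2378. The E10.5 peak of highest signal among the 101 without overlap was also in this window, at 134195226 to 134196789, 93.2 kb upstream of Myog, with a signal of 2776 (rank 19723). It lies far closer to the start site of Mybph, at 134193418, than to that of Myog. The E10.5 peak over the Mybph start site, of signal 833, had no E11.5 overlap either.

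Genes that act with the 7 were described by 2 lists. The list of 15 early muscle genes holds other regulators and signals of the precursors. Of these, 14 (93.3%) had a promoter peak in the E10.5 list and 11 (73.3%) in the E11.5 list, against 66.3% and 59.9% of all protein-coding genes. So 78.6% of those with an E10.5 promoter peak had one in both lists, against 89.9% over all protein-coding genes. The 5 of highest E11.5 signal were Gab1, the adaptor of Met (13538 at E10.5 and 8748 at E11.5), Six4 (14571 and 6364, at a peak within 1 kb of the Mnat1 start site), Meox2 (9684 and 3785), the chemokine receptor Cxcr4 (7314 and 2980) and Eya1 (4073 and 2102). Hgf, the ligand of Met, which limb mesenchyme makes, had promoter signals of 2828 and 1570. Eya2, Meox1 and Tcf21 had one in the E10.5 list alone. These 3 and Hgf were chosen for naming after their values were seen.

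In the list of 22 muscle differentiation genes, 12 had a promoter peak at E10.5 and 6 at E11.5, which is 50% of the 12, and 10 had none in either list. The 5 of highest E11.5 signal were the myosin light chain gene Mylpf (12432 and 5539, within 1 kb of the Tbc1d10b start site), Myf6, the calcium channel gene Cacna1s (3683 and 1099, within 1 kb of the Ascl5 start site), the cadherin gene Cdh15 (3750 and 632) and the calcium release channel gene Ryr1 (2044 and 574). Peaks at Six4, Mylpf and Cacna1s cannot be assigned to one of the neighbouring start sites. Among the 7 genes themselves, 3 of the 7 with an E10.5 promoter peak had one in both lists, which is 42.9%, against the same 89.9%. The shares of the lists were not tested against each other.

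Marker genes of the other cells in the limb gave a setting for these counts. Of 10 limb mesenchyme genes, 10 had an E10.5 promoter peak and 8 an E11.5 one. The counts were 8 and 6 of 9 ectoderm genes, 6 and 5 of 7 neural crest and glia genes, 6 and 4 of 9 endothelial genes and 2 and 3 of 7 blood genes. Over all protein-coding genes the shares were 66.3% and 59.9%. Neural crest cells can express Pax3 and Pax7, and their part in the peaks at these genes was not tested.

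**Figure D5:**
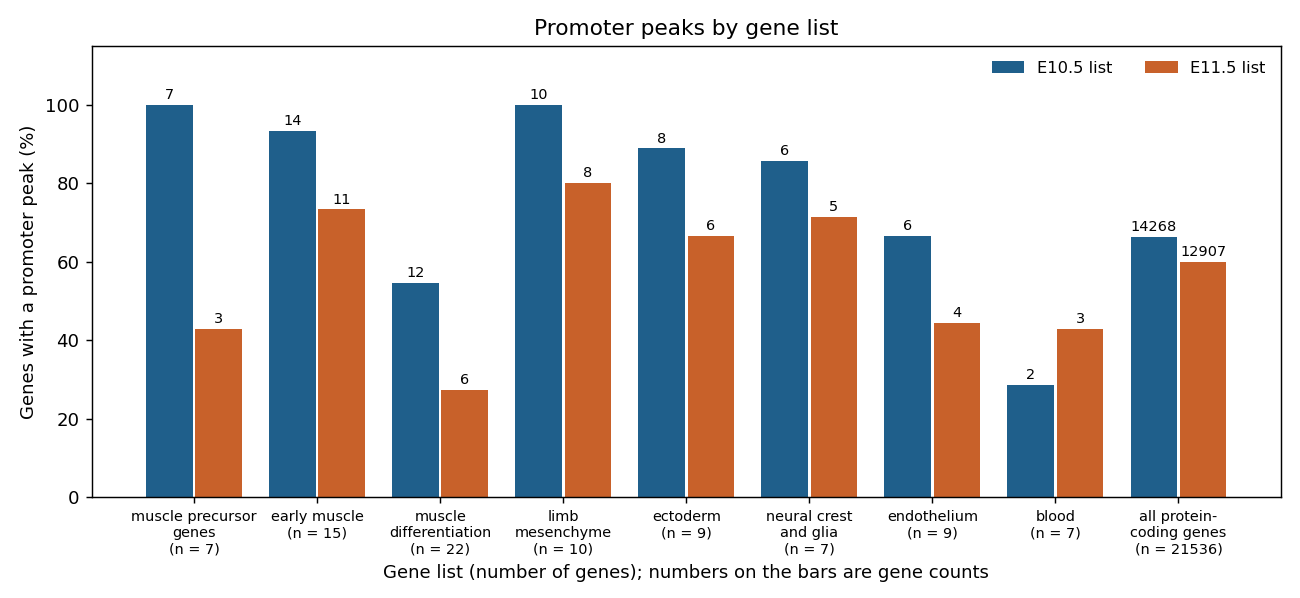
Percentage of genes with a promoter peak in the E10.5 list (blue) and the E11.5 list (orange), for the 7 muscle precursor genes, 7 further gene lists and all protein-coding genes, with gene counts on the bars. The 7 genes go from 7 to 3 and all protein-coding genes from 14268 to 12907.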

How the data were processed

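ATAC-seq was done on fore- and hindlimbs of wild-type embryos, 2 samples at E10.5 and 2 at E11.5, grouped by title. The authors deposited 1 narrowPeak list per stage on mm10, per the file headers. cutadapt, Bowtie2, SAMtools, deepTools and Genrich are named, per the submitters' processing notes. Their settings, any Tn5 shift and how replicates were joined are not given in the sources used here. The deposited signal value and the deposited −log10 p-value were used to rank peaks within a list. The deposited score follows from signal and width and was not used. The q-value column holds no q-values.

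Gene positions came from RefSeq (GRCm38.p6). Strand came from the RefSeq promoter table for 17492 protein-coding genes and, by symbol, from GENCODE M1 for 4044, while 351 without strand were left out. The start site is the outer end of the gene by strand. Exons and introns in mm10 and the sequence of distal peaks were not used here. Promoter sequences were matched by symbol, for 4 of 7 members. Peaks count as overlapping from 1 bp. Analyses used Python 3.11.15 with pandas 2.3.3 and scipy 1.17.1, and the overlap functions were tested on simulated data. The genes, lists and alternatives were chosen with earlier results of these data known. Named are all 7 members with every promoter peak, the 3 strongest distal peaks per member and list, the strongest peak in the E10.5 list only and up to 5 genes per further muscle list with promoter peaks in both lists. Hgf, Eya2, Meox1 and Tcf21 were named beyond this rule, after their values were seen. A gene of the early muscle list is not reported here and entered no count of that list.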

Additional observations from a re-analysis of the deposited data

How the results depend on the processing

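No paired analysis was possible because the replicates of a stage are joined in 1 list, which also bars leaving a replicate out. The unknown depth limits all counts. Over 9 alternative settings and 6 results, 20 values stayed within 1.5 times (counts) or within the 95% interval (shares) of the reported value and 14 moved. A floor of 5 on −log10 p kept 62 E10.5 and 7 E11.5 peaks near the 7 genes, by construction fewer, and left 5 genes with an E10.5 promoter peak (not Pax3 and Pax7) and 2 with an E11.5 one (not Lbx1). Windows of 50 kb held 71 and 13, and windows of 200 kb held 201 and 43. At matched number by signal there were 36 E10.5 peaks, 50% of them overlapping, and 4 genes with an E10.5 promoter peak. By −log10 p there were 31, 58.1% and 3. With 50% reciprocal overlap, 5.79% of E10.5 and 35% of E11.5 peaks were shared, and 19 of the 20 E11.5 peaks were narrower than the E10.5 peak they overlapped. A 500 bp promoter distance left the promoter counts at 7 and 3. So did added start sites, but these can only raise a count, so the 7 could not change. They were at hand for 4 of the 7 genes. Ranked by −log10 p or by signal per bp, each of the 12 promoter peaks took another place in its list, by little or by much. The Pax7 peak at 139833121 stood at 60.2% of the list by signal, 59.9% by −log10 p and 68.6% by signal per bp. For the E10.5 promoter peak of Lbx1 these were 8.77%, 20.8% and 36.8%.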
